A study of Mus musculus with 26 samples.

Results

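A set of 9 interferon-stimulated antiviral genes was followed through the 26 libraries of the series: Isg15, Ifit1, Ifit3, Irf7, Stat2, Rsad2, Oasl2, Usp18 and Bst2. They were taken by name from the 37991 genes of the read count table, each had 1 Ensembl identifier, and together they are 9 of those 37991 genes. Type I interferon binds the receptor formed by Ifnar1 and Ifnar2, the kinases Jak1 and Tyk2 are activated, and phosphorylated Stat2 joins Irf9 in the complex ISGF3, which binds interferon-stimulated response elements in promoters. Irf7 is a transcription factor that amplifies interferon production, Stat2 is the subunit of ISGF3 named above, and Usp18 removes Isg15 from proteins and dampens signalling at the receptor. Isg15 is a ubiquitin-like protein that is conjugated to other proteins, Ifit1 and Ifit3 belong to a family that recognises viral RNA, Rsad2 encodes viperin, Oasl2 is a member of the oligoadenylate synthetase-like family, and Bst2, or tetherin, holds budding virus at the cell surface. In the retina, microglia are among the cells known to respond strongly to interferon.

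All libraries came from rd10 mice (strain B6.CXB1-Pde6brd10/J for whole retina), which carry a mutation of the rod phosphodiesterase gene Pde6b and lose rods and then cones, so the control animals carried the mutation as well. Mice received an inhibitor of a chromatin-modifying enzyme, or saline in the control groups, by injection into the peritoneum between postnatal days 9 and 24. In whole retina, 4 inhibitors were each compared with their own controls: DZNep (an EZH2 inhibitor, 4 controls and 2 treated), UNC1999 (an EZH2 inhibitor, 3 and 3), UNC0642 (a G9a/GLP inhibitor, 2 and 2) and Romidepsin (a histone deacetylase inhibitor, 3 and 3). The 5th experiment compared GSK2879552, an LSD1 inhibitor, with controls in rods sorted from rd10 mice crossed to B6.Cg-Tg(Nrl-EGFP)1Asw/J, in which the Nrl promoter drives EGFP in rods (2 and 2). By the study's methods DZNep was given daily at first and then on alternate days, while the labels give daily injections. In the labels, the end of the genotype in the DZNep and UNC1999 experiments and the treatment UNC1999 count upwards from sample to sample, and they were read here as rd10 and UNC1999 throughout. UNC1999 was dissolved with DMSO, polyethylene glycol and Tween, while the labels name saline for the controls.

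The 22 whole retina libraries held 13732959 to 36354094 counts, and the 4 libraries of sorted rods, made with a different kit for low RNA input, held 7289460 to 19864491. A count of 0 therefore allowed up to 0.0825 to 0.218 CPM (counts scaled to library size) in a whole retina library and 0.151 to 0.412 CPM in a library of sorted rods, taking 3 counts as the limit and covering counting error only. The labels were checked against cell type markers: the 15 rod genes summed to 58290 to 88250 CPM in sorted rods and 9200 to 76900 CPM in whole retina, and the 18 microglia genes to 69.2 to 82.5 and 186 to 1196 CPM. The 8 cone genes were not lower in sorted rods. They summed to 3050 and 4558 CPM in control rods, 1674 and 2221 CPM in treated rods and 1229 to 2885 CPM in whole retina. In whole retina, fewer cells of a type and less RNA per cell cannot be told apart. The labels call the samples biological replicates without naming animals, so p-values measure the spread between these samples.

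**Figure D1:**
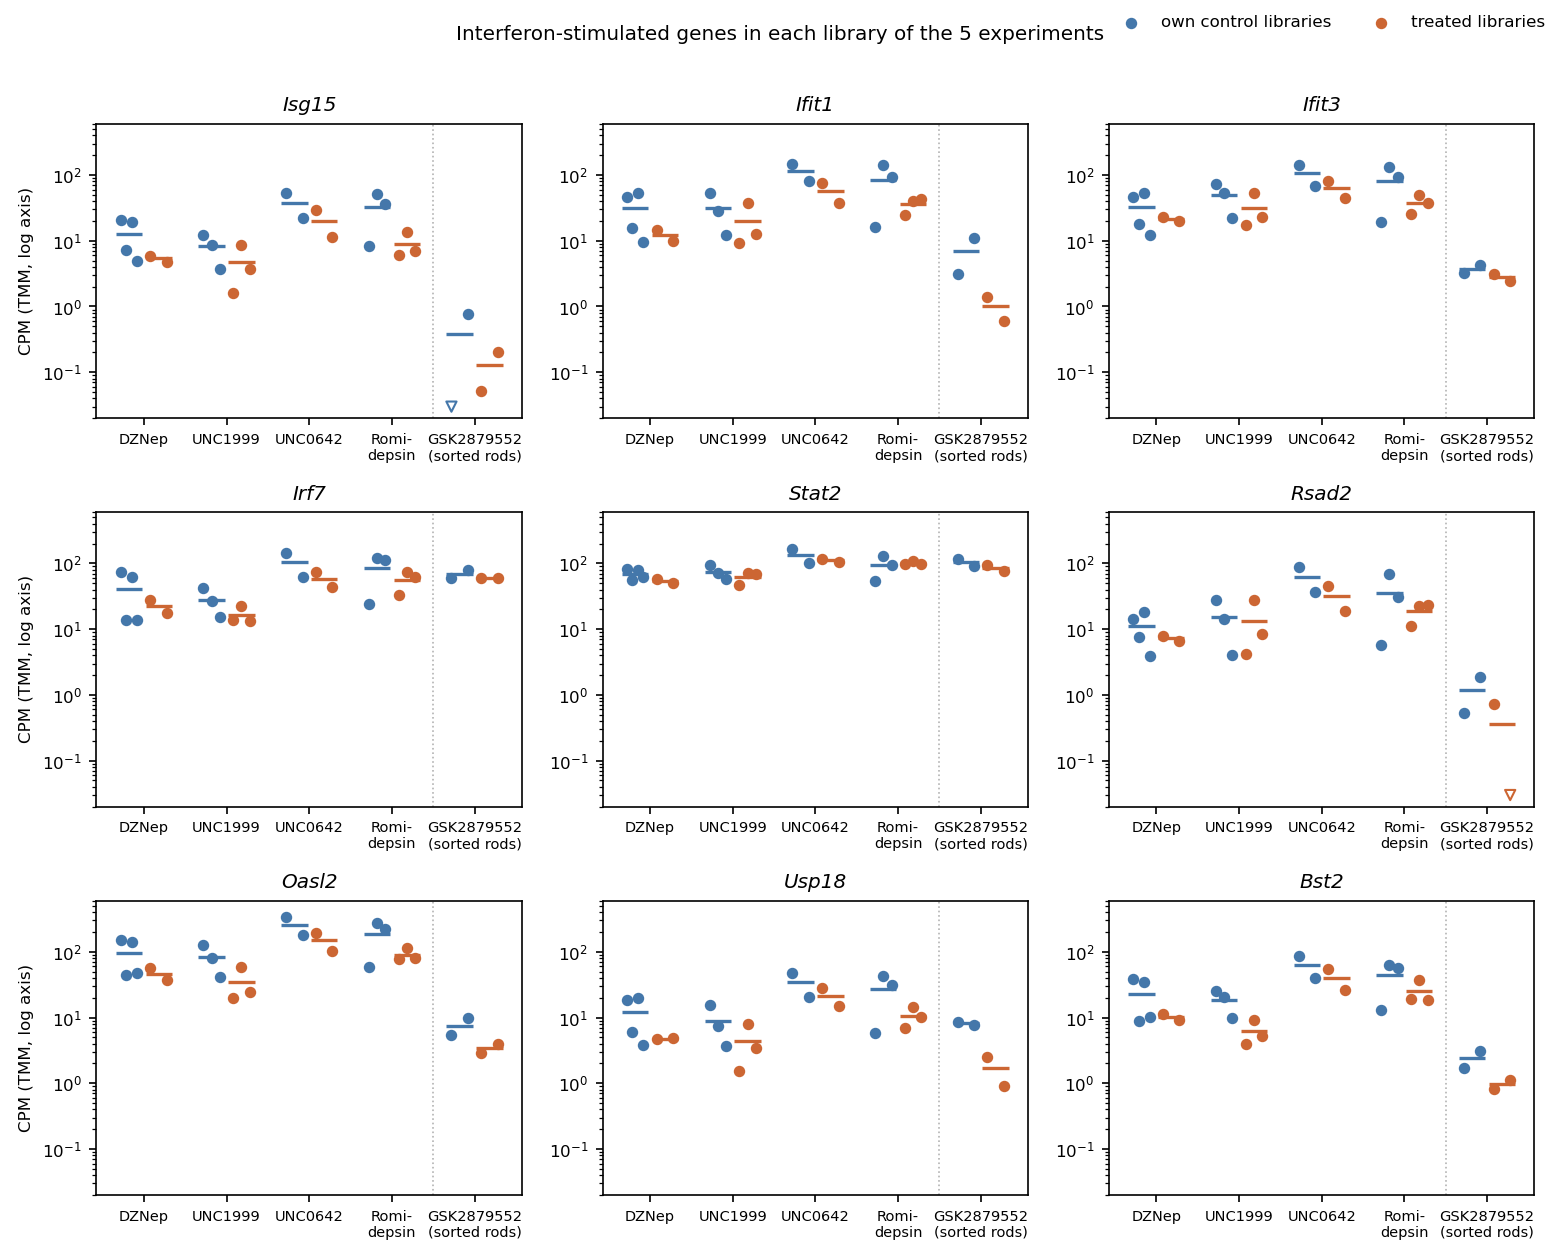
Levels of the 9 genes in every library, in CPM scaled by the trimmed mean of M values (TMM) on a log axis, with control libraries in blue, treated libraries in orange and group means as bars; open triangles mark a count of 0, and the dotted line separates sorted rods, which were scaled apart. Controls of the same experiment lay far apart for most genes, as for Ifit1 in the Romidepsin controls (16.0 to 141 CPM), and in sorted rods all genes but Irf7 and Stat2 were at most 10.9 CPM.

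The promoters of these genes are shown because the genes moved together from library to library, as described further on. Windows of 250 bases upstream of each RefSeq transcription start (table built on GRCm38.p6) were searched for GAAA-NN-GAAA (N is any base) on both strands, the core of an interferon-stimulated response element, with overlapping matches counted apart. Of the 9 genes, 8 matched the table by symbol, all but Usp18, and 6 of these 8 (75.0%) held the letters, beside 2.98% of all 32851 windows. A match describes letters in a window and is not a measured site. The windows of the 5 genes with the highest level per kilobase among those 6, located by exact match in NCBIM37 and cut for Ifit1 to the 127 bases outside annotated exons, read as follows from 5′ to 3′ on the strand of the gene, with matches in capitals:
Bst2 (chr8:74061372-74061621, minus strand): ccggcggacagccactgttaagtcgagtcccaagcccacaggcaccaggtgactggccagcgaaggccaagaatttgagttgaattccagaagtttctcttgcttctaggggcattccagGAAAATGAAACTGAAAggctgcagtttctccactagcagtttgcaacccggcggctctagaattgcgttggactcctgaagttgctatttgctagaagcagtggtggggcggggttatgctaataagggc
Ifit3 (chr19:34657769-34658018, plus strand): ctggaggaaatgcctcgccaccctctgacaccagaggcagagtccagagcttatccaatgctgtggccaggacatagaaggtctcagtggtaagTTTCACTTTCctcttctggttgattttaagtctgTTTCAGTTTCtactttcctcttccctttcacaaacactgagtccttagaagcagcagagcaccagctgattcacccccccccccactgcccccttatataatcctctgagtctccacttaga
Isg15 (chr4:155574928-155575177, minus strand): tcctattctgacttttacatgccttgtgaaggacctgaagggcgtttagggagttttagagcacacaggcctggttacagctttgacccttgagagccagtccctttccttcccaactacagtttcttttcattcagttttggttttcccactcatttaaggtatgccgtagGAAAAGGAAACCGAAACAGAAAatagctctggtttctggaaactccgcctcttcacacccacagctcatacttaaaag
Ifit1 (chr19:34715234-34715360, plus strand): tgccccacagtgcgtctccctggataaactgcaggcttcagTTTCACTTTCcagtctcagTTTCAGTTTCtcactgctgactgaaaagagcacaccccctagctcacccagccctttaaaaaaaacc
Stat2 (chr10:127707304-127707553, plus strand): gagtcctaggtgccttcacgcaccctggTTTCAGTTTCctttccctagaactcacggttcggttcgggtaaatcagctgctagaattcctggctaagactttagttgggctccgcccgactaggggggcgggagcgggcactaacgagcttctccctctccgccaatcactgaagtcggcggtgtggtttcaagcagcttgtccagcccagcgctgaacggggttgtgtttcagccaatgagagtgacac

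Isg15 held 3 overlapping matches, whose near ends lay 56, 62 and 68 bases before the start. Bst2 held 2 overlapping matches at 114 and 120 bases. In Ifit3, at 112 and 146 bases, and in Ifit1, at 75 and 94 bases, the 2 matches were separate and lay on the opposite strand. Stat2 held 1 match at 212 bases and Rsad2 1 match at 110 bases, both on the opposite strand, while the windows of Irf7 and Oasl2 did not hold these letters. The genes lie on 8 chromosomes: by the NCBIM37 annotation, Isg15 (ENSMUSG00000035692) at 155573533 to 155574927 of chromosome 4, Bst2 (ENSMUSG00000046718) at 74058163 to 74061336 of chromosome 8, and Stat2 (ENSMUSG00000040033) at 127707629 to 127729905 of chromosome 10. Ifit3 (ENSMUSG00000074896, 34658021 to 34663221) and Ifit1 (ENSMUSG00000034459, 34715361 to 34724499) are neighbours on chromosome 19. Rsad2 (ENSMUSG00000020641) lies at 27127618 to 27141317 of chromosome 12, Oasl2 (ENSMUSG00000029561) at 115346943 to 115362243 of chromosome 5, Usp18 (ENSMUSG00000030107) at 121195924 to 121220934 of chromosome 6 and Irf7 (ENSMUSG00000025498) at 148448605 to 148452380 of chromosome 7. Irf7 overlaps 45 exonic bases of the antisense gene Phrf1, and its counts may include reads of Phrf1, as the sources used here do not give the counting's strand option. Ifit3 has a near-identical copy, Ifit3b (I830012O16Rik in the annotation), and because of this likeness its counts may include reads of the copy.

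Per kilobase of exon, Bst2 had the highest mean level in the 12 control retinas, 44.6 ± 32.3 CPM per kb (SD, n = 12), and Rsad2 the lowest, 6.18 ± 6.17 CPM per kb (SD, n = 12). Between them stood Oasl2 (36.5), Ifit3 (35.0), Isg15 (27.3), Ifit1 (21.9), Stat2 (19.9), Irf7 (19.6) and Usp18 (10.5 CPM per kb). No neighbours in this order differed by more than their SDs. In the 2 control libraries of sorted rods the order was another: Stat2 (23.4) and Irf7 (23.2 CPM per kb) came first, Usp18 followed at 4.62, and Isg15 and Rsad2 came last at 0.503 and 0.278 CPM per kb.

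The first question was how far these genes varied among retinas that received no inhibitor. All 9 varied by more than most genes and in step with each other. Isg15 ran from 3.74 CPM in UNC1999 control 3 through a median of 15.7 to 53.1 CPM in UNC0642 control 1, a ratio of 14.2. Rsad2 had the widest range, 3.84 to 87.0 CPM with a median of 16.3 (ratio 22.7), and Stat2 the narrowest, 54.8 to 167 CPM with a median of 80.9 (ratio 3.05). UNC0642 control 1 was the highest library for all 9 genes.
The effectors Ifit1 (9.54 to 148 CPM, median 50.2), Ifit3 (12.3 to 144, median 52.4), Oasl2 (41.3 to 338, median 134) and Bst2 (8.96 to 86.1, median 30.0) covered 8.17-fold to 15.5-fold ranges, as did the transcription factor Irf7 (13.8 to 145 CPM, median 52.3) and the protease gene Usp18 (3.69 to 47.55 CPM, median 16.9). The SD of log2 CPM over the 12 controls was 1.498 for Rsad2, 1.37 for Ifit1, 1.29 for Usp18, 1.27 for Isg15, 1.25 for Irf7, 1.16 for Ifit3, 1.13 for Bst2, 1.06 for Oasl2 and 0.50 for Stat2. The median of these 9 SDs was 1.25, beside a median of 0.21 over all 17274 genes tested. As deviations from the mean of each control set, which leaves out differences between experiments, the members' median SD was 1.09, beside 0.15 over all genes.

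**Figure D2:**
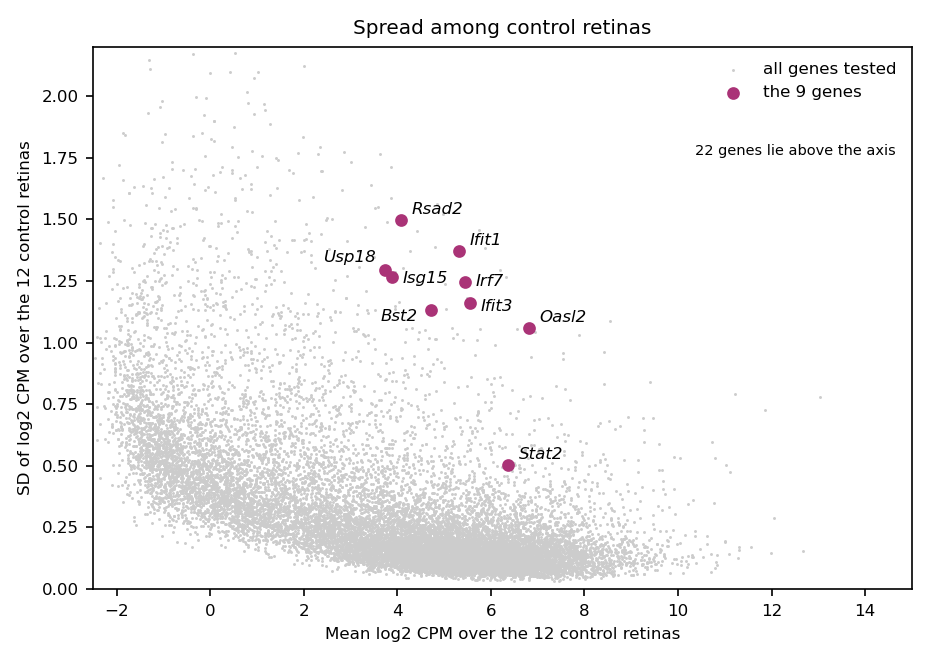
Each point is a gene, placed by its mean log2 CPM (horizontal) and by the SD of its log2 CPM (vertical) over the 12 control retinas, with all 17274 genes tested in grey and the 9 genes in purple; 22 genes lie above the axis. The 9 genes lie above most genes of like level, Rsad2 highest at 1.498 and Stat2 lowest at 0.50.

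Libraries of the same control set were ordered alike by these genes. In the Romidepsin controls all 9 genes were highest in replicate 2 and lowest in replicate 1, in the UNC1999 controls all 9 were highest in replicate 1 and lowest in replicate 3, and in the UNC0642 controls all 9 were higher in replicate 1. The 4 DZNep controls gave 3 different orders, all with replicates 1 and 3 above replicates 2 and 4. Among treated retinas, all 9 genes were highest in replicate 2 of UNC1999, and all 9 were higher in replicate 1 of UNC0642. Over the 22 whole retina libraries, each taken as its deviation from its own group mean, the 36 pairs of genes had Pearson r from 0.84 to 0.99 (median 0.95), and from 0.80 to 0.98 (median 0.93) without the 2 libraries farthest from the median, Romidepsin control 1 and DZNep control 4. These correlations are a description over libraries that the genes share, with their depth and their scaling.

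**Figure D3:**
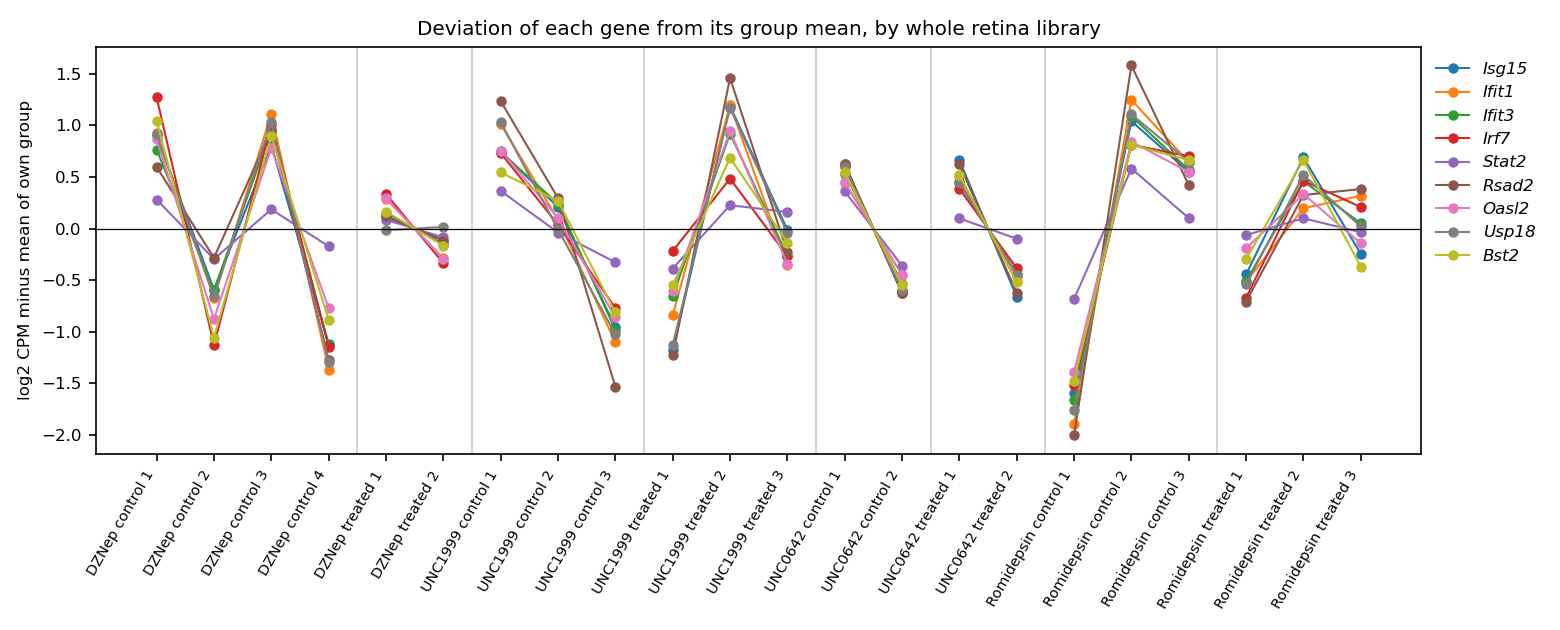
Deviation of the log2 CPM of each gene from the mean of its own group (vertical) in each of the 22 whole retina libraries (horizontal), with vertical lines between groups and 1 colour per gene. The 9 lines move up and down together, most of all in the Romidepsin controls, and the line of Stat2 has the smallest range.

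Between the 4 sets of control retinas, mean levels were lower in the DZNep and UNC1999 sets than in the UNC0642 and Romidepsin sets for all 9 genes. Isg15 averaged 12.8, 8.21, 37.6 and 32.1 CPM in the DZNep, UNC1999, UNC0642 and Romidepsin controls, Rsad2 11.02, 15.4, 61.9 and 35.6 CPM, and Stat2 69.7, 74.6, 134 and 93.6 CPM. By the quasi-likelihood F test of edgeR with Benjamini-Hochberg adjustment, 1 of the 9 genes, Isg15, differed among the sets at an adjusted p = 0.0499, while 39.1% of all 16995 genes tested did. The other 8 had adjusted p-values of 0.0632 to 0.148, and 3 of the 9 had an unadjusted p under 0.05, beside 50.7% of all genes. The likelihood ratio test called 5 of the 9 and DESeq2 0. The count depended on single libraries: it was 8 without Romidepsin control 1, and 0 without any of Romidepsin control 3, UNC0642 controls 1 and 2, DZNep controls 2, 3 and 4, and UNC1999 controls 2 and 3.
The UNC1999 libraries carry another library series name than the other whole retina libraries, and without the UNC1999 controls 0 of the 9 genes passed.

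Each inhibitor was then compared with its own controls, which asks whether inhibiting these chromatin enzymes went with a change in the interferon-stimulated genes. The call rule was an adjusted p under 0.05 over all genes tested together with a log2 fold change above 1 or below −1. In whole retina, fitted log2 fold changes (treated minus control) were below 0 for all 9 genes after DZNep, UNC1999 and UNC0642, and for 8 of 9 after Romidepsin, Stat2 being the exception. None of the 9 was called in any of the 5 comparisons by the quasi-likelihood test. Their standard errors were large, with medians of 0.40 to 0.55 over the 4 whole retina comparisons, beside 0.09 to 0.17 over all genes tested.

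After DZNep, the treated libraries lay near the lowest controls and below the highest. Irf7 stood at 74.1, 13.95, 61.7 and 13.8 CPM in the 4 controls and at 28.0 and 17.5 CPM in the 2 treated libraries, a log2 fold change of −0.81 (SE 0.68, adjusted p = 0.421). Stat2 stood at 83.5, 56.0, 78.2 and 61.0 CPM in controls and 57.3 and 50.8 CPM in treated retinas (log2 fold change −0.37, SE 0.15, adjusted p = 0.113). For both transcription factors the groups overlapped.
Isg15 was at 20.3, 7.14, 18.99 and 4.93 CPM in controls and 5.95 and 4.80 CPM after DZNep, a log2 fold change of −1.23 (SE 0.55, adjusted p = 0.144). Ifit1 was at 47.0, 15.5, 53.6 and 9.54 CPM against 14.7 and 9.83 CPM (log2 fold change −1.31, SE 0.65, adjusted p = 0.177). Controls 1 and 3 lay above both treated libraries for all 9 genes, and no gene had both treated libraries below all 4 controls, which 20.6% of all genes did.
The regulator Usp18 had the lowest log2 fold change, −1.34 (SE 0.63, adjusted p = 0.158), with 18.2, 6.07, 19.7 and 3.88 CPM in controls and 4.69 and 4.80 CPM in treated retinas. Bst2 and Oasl2 had log2 fold changes of −1.15 and −1.02, and Ifit3 and Rsad2 both −0.57. The members' median was −1.02, beside 0.00 over all genes, and 0 of 9 were called, beside 1.71% of all 16477 genes tested. Of the 9, 1 gene (Stat2) had an unadjusted p under 0.05, beside 36.5% of all genes, and neither the likelihood ratio test of edgeR nor DESeq2 called a member. Without control 4, Isg15, Ifit1 and Usp18 were called (adjusted p = 0.0346, 0.0433 and 0.0368), and without any other single library none was.

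After UNC1999, Bst2 stood apart from the other members. It was at 25.0, 20.7 and 9.73 CPM in the 3 controls and at 3.90, 9.32 and 5.23 CPM in the 3 treated libraries, so that every treated library lay below every control (as in 12.9% of all genes), with a log2 fold change of −1.58 (SE 0.40, adjusted p = 0.0757). The likelihood ratio test (adjusted p = 0.00318) and DESeq2 (adjusted p = 0.0339) called Bst2 and no other member. With no filter on low counts it was called as well (adjusted p = 0.0311), and over all 13 alternatives its adjusted p ran from 0.00318 to 0.261.
Oasl2 followed at 127, 80.7 and 41.3 CPM in controls and 20.1, 58.8 and 24.1 CPM after UNC1999 (log2 fold change −1.28, SE 0.48, adjusted p = 0.166), and Usp18 at 15.65, 7.57 and 3.69 against 1.56, 8.07 and 3.43 CPM (−1.02, SE 0.63, adjusted p = 0.364). Treated replicate 2 lay within the control range for 8 of the 9 genes, all but Bst2, and for Rsad2 it reached 27.3 CPM, beside 27.7, 14.4 and 3.99 CPM in controls. Rsad2 had the log2 fold change nearest 0, −0.20 (SE 0.76, adjusted p = 0.9002).
Irf7 was at 43.0, 26.5 and 15.1 CPM against 13.9, 22.6 and 13.4 CPM (log2 fold change −0.77, SE 0.37, adjusted p = 0.252), and Stat2 at a log2 fold change of −0.27 (SE 0.21). Isg15, Ifit3 and Ifit1 had log2 fold changes of −0.79, −0.69 and −0.64, and their groups overlapped. The members' median was −0.77, beside 0.00 over all genes. Of the 9 genes 0 were called, beside 0.368% of all 15775 genes, and 2 (Oasl2 and Bst2) had an unadjusted p under 0.05, beside 23.6%. Without UNC1999 control 3, Irf7, Oasl2 and Bst2 were called (adjusted p = 0.0343, 0.0372 and 0.00603). The median was −0.33 without control 1, −0.41 without treated replicate 1 and −1.49 without treated replicate 2.

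After UNC0642, replicate 1 was above replicate 2 in both arms for all 9 genes. Ifit1 was at 148 and 79.6 CPM in controls and 76.7 and 37.9 CPM in treated retinas, and was the only member with both treated libraries below both controls, which 24.8% of all genes had (log2 fold change −0.99, SE 0.38, adjusted p = 0.333). Isg15 was at 53.1 and 22.2 against 28.9 and 11.5 CPM (−0.89, SE 0.50), and Rsad2 at 87.0 and 36.7 against 44.6 and 18.8 CPM (−0.96, SE 0.49). For all members but Ifit1 treated replicate 1 lay between the controls.
The log2 fold changes of the others ran from −0.82 for Irf7 to −0.28 for Stat2, with a median of −0.80 over the 9 members and 0.00 over all genes. No member was called, and neither was any of the 16321 genes tested (0%). Of the 9, 1 gene (Ifit1) had an unadjusted p under 0.05, beside 14.7% of all genes, and the likelihood ratio test and DESeq2 called none. The median was −0.12 without control 1, where the fitted values of Stat2, Usp18 and Bst2 were above 0, −0.39 without treated replicate 2 and −1.28 without treated replicate 1.

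After Romidepsin, treated libraries lay between the lowest control and the other controls for 7 of the 9 genes, all but Isg15 and Stat2. Isg15 had the lowest log2 fold change of the whole retina comparisons, −1.86 (SE 0.57, adjusted p = 0.127), at 8.23, 51.4 and 36.6 CPM in controls and 6.17, 13.6 and 7.09 CPM in treated retinas. Usp18 was at 5.89, 43.3 and 31.5 against 6.94, 14.5 and 10.3 CPM (−1.36, SE 0.58, adjusted p = 0.244), and Ifit1 at 16.0, 141 and 93.1 against 24.5, 40.1 and 43.6 CPM (−1.22, SE 0.61, adjusted p = 0.308). Control replicate 1 lay below all 3 treated libraries for 8 of the 9 genes, all but Isg15.
Stat2 was at 54.8, 132 and 94.3 CPM in controls and 96.9, 108 and 98.7 CPM after Romidepsin, a log2 fold change of 0.11 (SE 0.26, adjusted p = 0.861), and was the only member with a fitted value above 0. Irf7 was at 24.1, 121 and 112 against 33.3, 73.0 and 61.3 CPM (−0.63, SE 0.51). Ifit3, Oasl2, Rsad2 and Bst2 had log2 fold changes of −1.11, −1.03, −0.91 and −0.87.
The members' median was −1.03, beside −0.01 over all genes, with 0 of 9 called, beside 0.561% of all 16049 genes. Isg15 and Usp18 had an unadjusted p under 0.05, beside 19.4% of all genes. The likelihood ratio test called Isg15 (adjusted p = 0.0241) and DESeq2 none. No member had all treated libraries below all controls, which 12.1% of genes had. Without Romidepsin control 1, Isg15, Ifit1, Oasl2 and Usp18 were called (adjusted p = 0.0368, 0.0418, 0.0368 and 0.0418) and the median was −1.46. Without control 2 the median was −0.57.

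**Figure D4:**
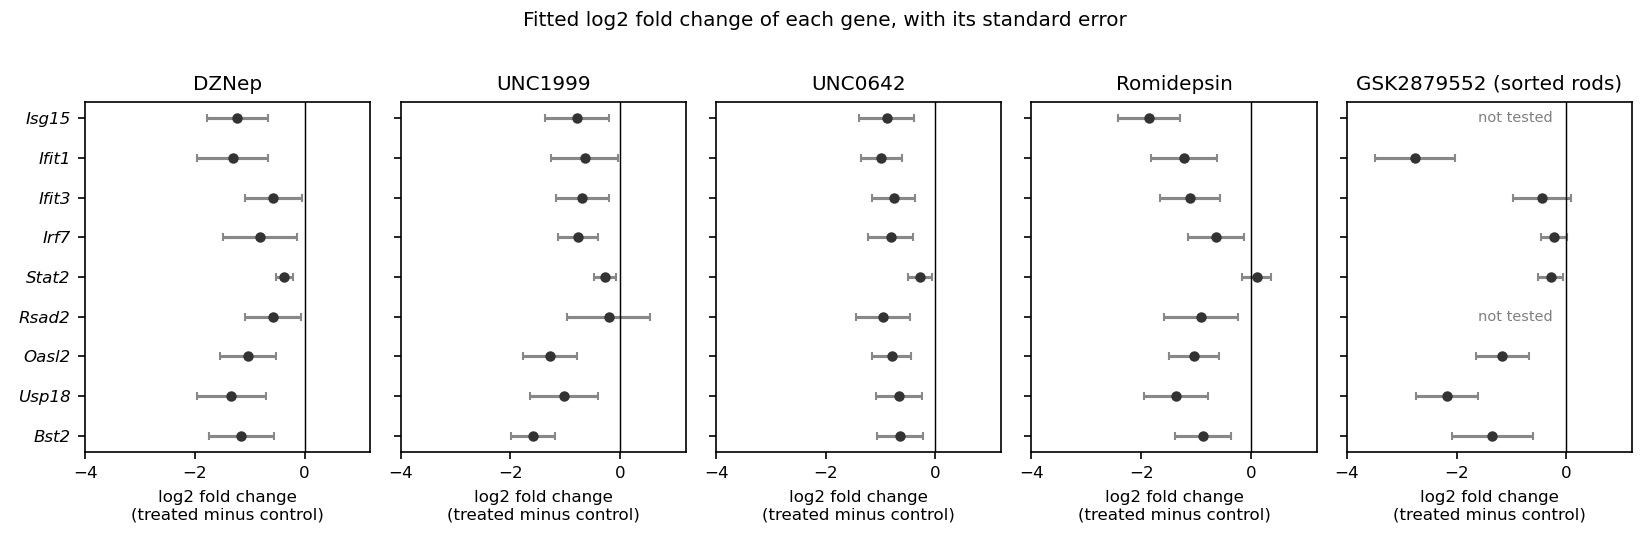
Fitted log2 fold change (treated minus control, horizontal) of each gene in the 5 comparisons, with bars for 1 standard error. Values lie below 0 for all tested genes but Stat2 after Romidepsin (0.11), and the bars are shortest for Stat2.

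In sorted rods the 9 genes split by level. Irf7 was at 59.97 and 80 CPM in the 2 controls and 59.8 and 60.5 CPM after GSK2879552 (log2 fold change −0.22, SE 0.23, adjusted p = 0.989), and Stat2 at 115 and 90.9 against 94.1 and 75.7 CPM (−0.28, SE 0.23, adjusted p = 0.987). These levels were in the range of the control retinas. The other 7 genes were at most 10.9 CPM in every library of sorted rods. Of these, Usp18 was within its control retina range (3.69 to 47.55 CPM) in both controls, at 8.68 and 7.66 CPM. Ifit1 was within its range (9.54 to 148 CPM) in control 2 only, at 10.9 CPM. The 2 kinds of library were made with different kits and scaled apart, so their levels were set side by side without a test.
Isg15 was at 0 and 0.760 CPM in controls (0 and 13 counts) and at 0.0519 and 0.201 CPM after treatment (1 and 2 counts). Rsad2 was at 0.534 and 1.87 CPM (4 and 32 counts) and at 0.727 and 0 CPM (14 and 0 counts). Neither passed the filter on low counts, so 7 of the 9 genes were tested.
Usp18 was at 8.68 and 7.66 CPM in controls (65 and 131 counts) and 2.54 and 0.907 CPM after GSK2879552 (49 and 9 counts), a log2 fold change of −2.18 (SE 0.56, adjusted p = 0.721). Ifit1 was at 3.07 and 10.9 CPM (23 and 186 counts) against 1.40 and 0.605 CPM (27 and 6 counts), with −2.75 (SE 0.73, adjusted p = 0.768). For both, each treated library lay below each control, though the controls of Ifit1 differed by 3.54-fold.
Oasl2 was at 5.34 and 9.77 against 2.91 and 3.93 CPM (log2 fold change −1.17, SE 0.48), Bst2 at 1.74 and 3.10 against 0.831 and 1.11 CPM (−1.35, SE 0.74), and Ifit3 at 3.21 and 4.27 against 3.12 and 2.42 CPM (−0.43, SE 0.53). No member was called, and neither was any of the 14478 genes tested (0%). On simulated counts, this comparison called 10 of 200 genes changed 2-fold and 148 of 200 changed 4-fold, so most 2-fold changes would be missed. The 3 genes Ifit1, Oasl2 and Usp18 had an unadjusted p under 0.05, beside 4.91% of all genes, and 5 of the 7 tested had each treated library below each control, beside 17.3%. The likelihood ratio test called Usp18 (adjusted p = 0.0438), and DESeq2 called none. Without treated replicate 1, Ifit1 and Usp18 were called (adjusted p = 0.0218 and 0.0269), and without control replicate 2 the median of the 7 moved from −1.17 to −0.65.

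Whether the changes differed between inhibitors was tested in 1 fit of the 22 whole retina libraries, as 6 differences of 2 effects for each of the 9 genes. Of these 54 tests 0 passed by the quasi-likelihood test or by the likelihood ratio test, and 0 had an unadjusted p under 0.05. The smallest adjusted p of the quasi-likelihood test was 0.546. Of all 17274 genes, 0.00579% were called for DZNep less UNC1999, 0.0232% for DZNep less UNC0642, 0.237% for DZNep less Romidepsin, 0.00579% for UNC1999 less UNC0642, 2.4% for UNC1999 less Romidepsin and 0.0174% for UNC0642 less Romidepsin. In the same order 9.45%, 13.1%, 13.8%, 12%, 21.8% and 12.6% of all genes had an unadjusted p under 0.05. The fits left wide limits: for Isg15 the UNC1999 effect less the Romidepsin effect was 1.08 on the log2 scale (SE 0.96), and for the 2 EZH2 inhibitors the DZNep effect less the UNC1999 effect was −0.46 for Isg15 (SE 1.02), a range of −2.502 to 1.59 at 2 standard errors. For Stat2, the member with the smallest spread, the same difference was −0.10 (SE 0.37). The data therefore do not show that the inhibitors acted alike on these genes.

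Among the 10 genes whose pattern was most like the mean of the 9 members, over the 22 whole retina libraries as deviations from their group means, were Zbp1 (Pearson r = 0.98), Parp9 (0.98), Ddx58 (0.98), Rtp4 (0.98), Lgals9 (0.98), Mx2 (0.98), Oas1b (0.98), Ifi204 (0.98) and Tap1 (0.98). Ddx58 encodes the viral RNA sensor RIG-I, Zbp1 senses Z-form nucleic acid, Mx2 is a dynamin-like antiviral GTPase and Tap1 carries peptides to MHC class I. Spearman's rho for these 9 named genes ran from 0.95 to 0.99, and r without Romidepsin control 1 and DZNep control 4 from 0.96 to 0.98. Parp9 ran from 11.7 to 55.2 CPM over the 12 control retinas, with a median of 24.2. Of the other 17265 genes tested 84 had r above 0.9, and their median r was −0.04.

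Further genes of the pathway came from 7 lists holding 85 genes. The interferon genes themselves were at or near 0. Ifnb1, the gene of interferon beta, had 28 counts in all, spread over 8 of the 26 libraries, and exceeded 3 counts in Romidepsin control 2 (9 counts, 0.470 CPM), Romidepsin control 3 (4), UNC0642 control 1 (4) and UNC0642 control 2 (4). Ifna1, Ifnk and Il28b had 0 counts in every library, Ifna2, Ifne and Il28a had 1 count each, and Ifna4 and Ifng 5 each. None of these 9 genes passed the filter on low counts in any comparison, so none was tested.

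Of the 9 receptor and kinase genes, 0 were called by the quasi-likelihood test in any comparison, with 3, 1, 0, 0 and 0 at an unadjusted p under 0.05 after DZNep, UNC1999, UNC0642, Romidepsin and GSK2879552, beside 36.5%, 23.6%, 14.7%, 19.4% and 4.91% of all genes, and their median log2 fold changes ran from −0.18 in sorted rods to 0.07 after Romidepsin. Ifnar1 was at 65.1 ± 1.94 CPM (SD, n = 4) in the DZNep controls and 67.9 ± 2.24 CPM (SD, n = 2) after DZNep, and its log2 fold changes in the 5 comparisons ran from −0.17 after UNC0642 to 0.07 after Romidepsin. Ifnar2 had log2 fold changes of −0.46 (SE 0.12, adjusted p = 0.0227) after DZNep, −0.65 (SE 0.17, adjusted p = 0.0805) after UNC1999, −0.19 after UNC0642, −0.27 after Romidepsin and −0.35 in sorted rods, none past the fold threshold. The adjusted p after DZNep was 0.195 without treated replicate 1, 0.0560 without control 3 and 0.0874 in the fit of the 22 whole retina libraries. The interferon gamma receptor genes Ifngr1 and Ifngr2 and the lambda receptor genes Il28ra and Il10rb had log2 fold changes between −0.51 (Ifngr2 in sorted rods) and 0.56 (Il28ra after Romidepsin), with no adjusted p under 0.05.

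Of the 8 further transcription factors 0 were called by the same test, with 4, 4, 0, 3 and 2 at an unadjusted p under 0.05 in the same order, beside the same shares of all genes. Fitted values were below 0 for 6, 7 and 6 of the 8 after DZNep, UNC1999 and UNC0642, and for 6 of 7 tested in sorted rods. After Romidepsin 5 of the 8 were above 0, with a median log2 fold change of 0.08. Irf9, which binds DNA within ISGF3, had log2 fold changes of −0.85 after DZNep, −0.61 after UNC1999, −0.22 after UNC0642, −0.16 after Romidepsin and −1.06 in sorted rods, with adjusted p-values of 0.188 to 0.894. In sorted rods Irf9 was at 47.6 ± 3.00 CPM (SD, n = 2) in controls and 22.6 ± 10.1 CPM (SD, n = 2) after GSK2879552.

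Among the 13 sensors and adaptors, 2 were called lower after Romidepsin by the same test, beside 0.561% of all genes called. Fitted values after Romidepsin were below 0 for 12 of the 13, and 6 had an unadjusted p under 0.05, beside 19.4% of all genes. Tlr9, a receptor for unmethylated DNA, went from 2.34, 3.76 and 3.29 CPM to 0.551, 0.385 and 0.591 CPM (log2 fold change −2.61, SE 0.31, adjusted p = 0.0269), and Tlr7, a receptor for single-stranded RNA, from 3.95, 7.94 and 7.24 to 2.09, 1.98 and 1.41 CPM (−1.82, SE 0.31, adjusted p = 0.0446). In both, every treated library lay below every control, as in 12.1% of all genes. Neither was called without control replicate 2, control replicate 3 or treated replicate 3 (adjusted p = 0.112 to 0.124 for Tlr9 and 0.144 to 0.172 for Tlr7).
Among the 8 negative regulators, Socs3, which inhibits JAK kinases downstream of gp130 cytokines and interferon, rose after Romidepsin from 13.7, 33.1 and 19.2 to 69.8, 202 and 190 CPM (log2 fold change 2.79, SE 0.44, adjusted p = 0.0354). It was not called without any single control or without treated replicate 3, at adjusted p-values of 0.0583 to 0.147.

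Of the 34 other antiviral effectors and the 4 genes of ISG15 conjugation, 0 were called in any comparison by the same test. An unadjusted p under 0.05 was found for 8, 13, 6, 16 and 3 of the effectors and for 3, 4, 0, 3 and 0 of the conjugation genes, beside 36.5%, 23.6%, 14.7%, 19.4% and 4.91% of all genes tested. Fitted values of the effectors were below 0 for 30 of 33 tested after DZNep, 32 of 32 after UNC1999, 33 of 33 after UNC0642, 30 of 33 after Romidepsin and 12 of 17 in sorted rods, with medians of −0.74, −0.79, −0.73, −0.96 and −0.54. Ifitm1, named after its values were seen, was 1 of the 3 above 0 after Romidepsin. Its mean went from 4.67 to 23.9 CPM (log2 fold change 2.33, SE 0.44, adjusted p = 0.0555 by the quasi-likelihood test). The conjugation genes Uba7, Ube2l6, Herc6 and Dtx3l had medians of −0.68, −0.81, −0.66, −0.88 and −0.15. Over all 7 lists, 60 of 74 tested genes were below 0 after DZNep, 69 of 73 after UNC1999, 68 of 74 after UNC0642, 54 of 74 after Romidepsin and 33 of 47 in sorted rods, beside 50.1%, 50.4%, 50.3%, 51.1% and 51.2% of all genes tested.
Where no listed gene was called, those named with the smallest p-values were Pias1 (log2 fold change 0.32, adjusted p = 0.00617), Adar (−0.27, 0.00979) and Ifnar2 after DZNep, all under the fold threshold, and Ptpn6 (−1.44, 0.0589), Ikbke (−1.69, 0.0757) and Ifnar2 after UNC1999. They were Ifit2 (−0.43, 0.299), Eif2ak2 (−0.86, 0.304) and Tlr7 (−0.95, 0.314) after UNC0642, and Rtp4 (−4.80, 0.547) and Ddx60 (−2.74, 0.856) in sorted rods. Both genes of sorted rods were near the floor after GSK2879552. Rtp4 had 26 and 42 counts in controls and 3 and 0 after treatment, and Ddx60 averaged 2.76 and 0.409 CPM. For Ptpn6 and Ikbke after UNC1999, the likelihood ratio test (adjusted p = 0.000872 and 0.00489) and DESeq2 (0.000846 and 0.0225) made calls, and so they did for Rtp4 in sorted rods (adjusted p = 0.000956 and 0.0481).

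Markers of other cells moved with some of these comparisons. The summed level of the 18 microglia genes was 300 to 622 CPM in the DZNep controls and 237 to 263 CPM after DZNep, 328 to 580 and 186 to 245 CPM with UNC1999, 868 to 1196 and 531 to 799 CPM with UNC0642, and 560 to 912 and 457 to 656 CPM with Romidepsin. Of these 4 pairs of groups, only those of Romidepsin overlapped. Among all single genes, 20.6%, 12.9% and 24.8% had every treated library below every control after DZNep, UNC1999 and UNC0642. All 18 microglia genes were tested in each whole retina comparison, with 4 called lower after DZNep (Ptprc, Lyz2, Mpeg1 and Fcrls), 1 after UNC1999 (Lyz2), 0 after UNC0642 and 1 after Romidepsin (Mpeg1), and median log2 fold changes of −0.80, −1.23, −0.64 and −0.64. In the same order 1.71%, 0.368%, 0% and 0.561% of all genes were called, higher or lower. No microglia marker was at 0 in all libraries of an experiment. Over the 22 whole retina libraries, as deviations from group means, the median r of the 18 microglia genes with the mean of the 9 members was 0.80, beside 0.69 for 7 gliosis genes, −0.19 for 15 rod genes and −0.04 for all genes. The part of microglia in the levels of the 9 genes was not tested. In sorted rods the microglia genes summed to 69.3 and 82.5 CPM in controls and 72.6 and 69.2 CPM after GSK2879552, with 0 of 11 tested genes called. Of the 11, 9 had fitted values below 0, with a median log2 fold change of −0.43, beside −0.01 over all genes. Cx3cr1, a microglial chemokine receptor named here after its values were seen, was at 0.935 and 1.40 CPM in controls (7 and 24 counts). After GSK2879552 it was at 0.260 and 0.705 CPM (5 and 7 counts). The microglia gene P2ry12, also named after its values were seen, was at 0.935 and 2.69 CPM in controls. Both treated libraries lay between these, at 1.45 and 1.31 CPM.

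**Figure D5:**
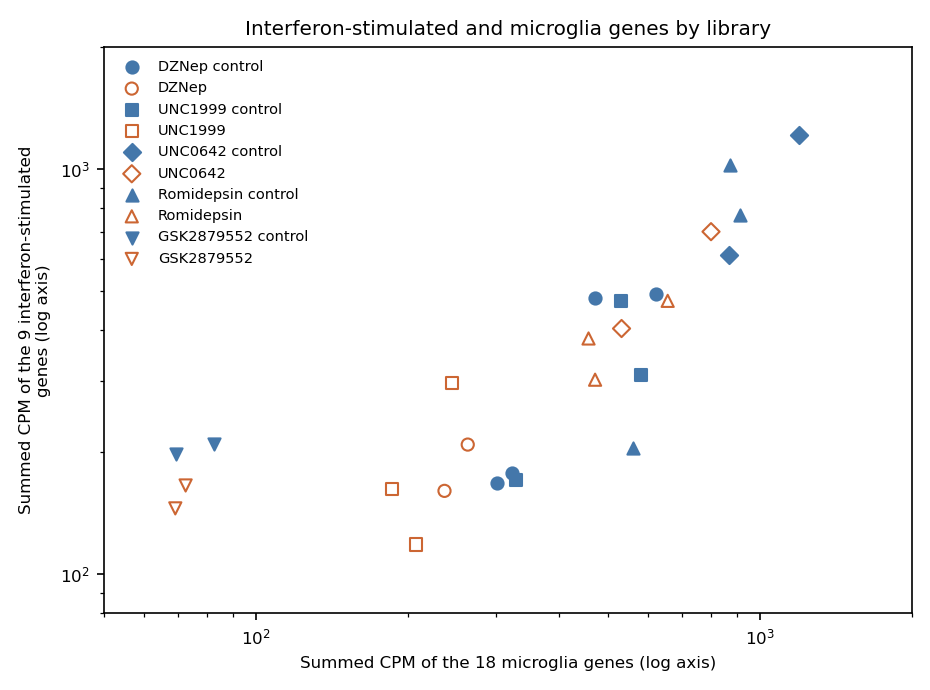
Summed CPM of the 9 interferon-stimulated genes (vertical) against summed CPM of the 18 microglia genes (horizontal), both on log axes, for each of the 26 libraries, with filled symbols for controls and open symbols for treated libraries. In whole retina the sums ran from 118 to 1215 CPM and from 186 to 1196 CPM, and the libraries of sorted rods lie apart at 145 to 209 CPM and 69.2 to 82.5 CPM.

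The 15 rod genes summed to 20130 to 33700 CPM in the DZNep controls and 62070 to 64010 CPM after DZNep. Of the 15, 12 were called higher, beside 1.71% of all genes called, higher or lower. With UNC1999 the rod sums were 22280 to 41680 CPM in controls and 56960 to 76900 CPM in treated retinas. Here 1 was called higher (Abca4), beside 0.368% of all genes called. With Romidepsin the sums were 16390 to 26490 CPM in controls and 26740 to 34500 CPM in treated retinas, and with UNC0642 9200 to 9383 and 9609 to 14360 CPM, with 0 rod genes called in either. In these 4 pairs of groups the rod sums did not overlap. The share of all single genes with every treated library above every control was not counted, here or for the sums below. Of 10 genes of the retinal pigment epithelium, 5 were called higher after DZNep and 7 after UNC1999, with summed levels of 78.3 to 184 and 229 to 296 CPM, and of 127 to 155 and 404 to 470 CPM. After Romidepsin 9 of these 10 genes had fitted values below 0. Their sums were 112 to 123 CPM in the Romidepsin controls and 65.1 to 78.4 CPM in treated retinas. With UNC0642 the sums were 79.7 to 148 and 158 to 178 CPM, and 0 were called in either comparison. After DZNep, 2 of 4 tested lens genes (Cryaa and Crybb2) and 1 of 5 blood genes (Hbb-b1) were also called higher. Of all genes, 1.71% were called there, higher or lower. The lens sum was 76.4 CPM in DZNep treated replicate 2 and 3.32 CPM in treated replicate 1, beside 3.94 to 4.99 CPM in the DZNep controls. The lens sum was thus raised in 1 treated library only, and the blood sums of treated and control retinas overlapped. No gene of the lists for lymphocytes, endothelium, Mueller glia, gliosis, cones or inner retina neurons was called in any comparison, but several of their summed levels did not overlap between groups. Among all single genes, every treated library lay below every control for 20.6% after DZNep, 12.9% after UNC1999, 24.8% after UNC0642 and 12.1% after Romidepsin. In sorted rods this share was 17.3%. The endothelium sum was lower in every treated library than in its controls in the 4 whole retina experiments (631 to 650 against 751 to 950 CPM with Romidepsin), as was the Mueller glia sum in all of these but UNC1999 (4527 to 5432 against 6507 to 7734 CPM with Romidepsin). Single endothelium genes did not all follow their sum. Of the 9, fitted values were below 0 for 9 after DZNep, 5 after UNC1999, 3 after UNC0642 and 4 after Romidepsin. Their median log2 fold changes were −0.19, −0.06, 0.05 and 0.00. The cone sum stood below that of controls after UNC0642 and DZNep, and the sums of inner retina neurons after DZNep and Romidepsin, of lymphocytes after UNC0642 and DZNep and of gliosis genes after DZNep did so too. Some gaps were narrow: after DZNep the gliosis sums were 1066 and 1073 CPM, beside 1075 to 1568 CPM in controls. The lymphocyte sums after DZNep were 1.75 and 1.91 CPM, beside 2.05 to 3.27 CPM in controls. After Romidepsin all 7 gliosis genes had fitted values above 0, while their sums overlapped (1209 to 2660 CPM in controls and 2408 to 2873 CPM in treated retinas). In sorted rods the sums were 3050 to 4558 CPM in controls and 1674 to 2221 CPM after GSK2879552 for cones, 390 to 493 and 281 to 306 CPM for gliosis, and 218 to 298 and 400 to 414 CPM for Mueller glia, and the endothelium sum was also above that of both controls. The part of these cells in the results for the 9 genes was not tested.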

How the data were processed

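RNA was measured in 22 whole retinas and 4 samples of sorted rods. The authors deposited 1 table of read counts per Ensembl gene: reads were trimmed with BBDuk, aligned with HISAT2 2.2.1 to NCBIM37 (mm9, Ensembl release 67) and counted with HTSeq 0.11.2, with the strand setting not stated. A strand-specific kit was used for retinas and a low-input kit for rods.

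Identifiers were named with the annotation of Ensembl release 65. Groups came from the sample labels. Counts were tested with edgeR 4.0.16 (filterByExpr, TMM, quasi-likelihood test) within each experiment, with Benjamini-Hochberg adjustment over all genes tested, and SE is the log2 fold change divided by the root of F. CPM were TMM-scaled over the 22 retinas and, apart, over the 4 rod libraries. SDs and correlations used log2 CPM with a prior count of 2. Simulated counts were used to test the main fit of each inhibitor, the difference DZNep less UNC1999 and the test among control sets. Of 200 genes changed 2-fold, 10 had an adjusted p under 0.05 for GSK2879552 and 122 to 148 for the other inhibitors. Of 200 genes changed 4-fold, 148 were called for GSK2879552 and 183 to 195 for the other inhibitors. The changed genes were drawn at random from all genes tested. In whole retina the 9 genes had median standard errors of 0.40 to 0.55, beside 0.09 to 0.17 over all genes. The shares found on simulated counts therefore do not carry over to the 9 genes. All 23 pairs of libraries of a group differed by more than counting noise. The alternatives tried were RLE scaling, other filters on low counts, a replicate block, single libraries left out, a joint fit of all retinas, DESeq2 1.42.0 and edgeR's likelihood ratio test, the authors' choice.

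The 9 genes and all lists (7 pathway lists and 11 lists of cell markers) were chosen with earlier results of these data known. Named were the 9 genes; listed genes called in a comparison or, where there were none, the 3 with the smallest p; the interferon genes, their receptors and Irf9; the 10 genes with the highest r; and promoters of up to 5 members with a match. Genes named from marker lists were those called. Of the genes under these rules, 1 is not reported here.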

Additional observations from a re-analysis of the deposited data

How the results depend on the processing

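The members' median log2 fold change stayed below 0 under every alternative in all 5 comparisons. Leaving out single libraries moved it within -1.31 to -0.73 (DZNep), -1.49 to -0.33 (UNC1999), -1.28 to -0.12 (UNC0642), -1.46 to -0.57 (Romidepsin) and -1.69 to -0.65 (GSK2879552), and moved the number of members called, 0 in each comparison, within 0 to 3, 0 to 3, 0 to 0, 0 to 4 and 0 to 2. The likelihood ratio test called 1 member each after UNC1999, after Romidepsin and in sorted rods, no filter on low counts 1, 1 and 2, and DESeq2 1 after UNC1999. The number of members that differed among the control sets, 1, became 5 with the likelihood ratio test, 3 with no filter, 0 with RLE scaling, with DESeq2 and without the UNC1999 controls, and 0 to 8 without single libraries. Of the 10 genes most like the members, 2 were shared when 12 control retinas alone were used and 6 to 10 when single libraries were left out. Fitted values changed sign without single libraries for Rsad2 after UNC1999 (-1.26 to 0.53) and Romidepsin (-1.41 to 0.027), for Stat2 after UNC0642 (-0.59 to 0.12) and Romidepsin (-0.17 to 0.44), for Usp18 (-1.20 to 0.055) and Bst2 (-1.28 to 0.0003042) after UNC0642, for Irf9 after UNC0642 (-0.47 to 0.082) and Romidepsin (-0.55 to 0.14), and for Irf7 in sorted rods (-0.41 to 0.0029). The causes of these changes were not tested. Depth limits the sorted rods, where Isg15 and Rsad2 had too few counts to be tested.

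Replicate numbers are shared by the groups, but nothing in the labels ties them to a litter or day, and same-numbered libraries did not all deviate together (r of -0.208 and 0.0194 with DZNep, -0.28, 0.23 and -0.0422 with UNC1999, 0.213 with UNC0642, 0.204, -0.0449 and -0.273 with Romidepsin, and -0.0788 in sorted rods). With the replicate block, 2 members were called after DZNep (Isg15 and Ifit1, adjusted p = 0.0390 and 0.0184), 1 after UNC0642 (Ifit1, adjusted p = 2.21e-05, with 7 further members at adjusted p-values of 6.57e-05 to 0.00686 but under the fold threshold) and 0 in the other comparisons by edgeR's quasi-likelihood test. Irf9 after Romidepsin had a fitted value of 0.016 with the block, and Tlr7 after Romidepsin was not called (adjusted p = 0.0594).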
